A study of Mus musculus with 12 samples.

Results

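ATAC-seq uses a transposase that cuts and tags open DNA, and a peak marks a stretch where its insertions pile up. The regions described here were open in every library of the series and lie inside genes, away from gene ends. They were found by merging the autosomal peaks of all 12 libraries where they overlapped by at least 1 bp. A merged region was kept when it was called in 12 of 12 libraries, was under 2000 bp long, had its centre inside a RefSeq protein-coding gene of GRCm38.p6 (the assembly of mm10), and lay more than 1 kb from the boundary of any gene. This rule kept 5012 of 144562 merged regions, and 17343 regions in all were called in 12 of 12 libraries. The regions were thus chosen by the authors' peak calls, so being called everywhere is not a result.

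The cells were mouse bone marrow-derived macrophages (BMDMs), either wild type (WT) or lacking Baf60a by knockout (KO). The product of Smarcd1, Baf60a, is one of the subunits of SWI/SNF, a complex that remodels chromatin. Cells of both genotypes were either untreated or exposed to oxidised LDL (oxLDL) at 50 µg/ml for 48 h. Macrophages take up this modified lipoprotein and become foam cells. What is called the first cohort here held 1 library for each of the 4 combinations of genotype and treatment, made by the Omni-ATAC protocol, and its labels give neither the allele nor the ApoE status. The ApoE KO cohort held 2 libraries for each combination. They came from cryopreserved cells, were made with a Nextera kit and all carry the ApoE knockout, with floxed Baf60a and Lyz2 Cre in KO (Baf60af/f, Lyz2 Cre+) and the same floxed alleles without Cre in WT (Lyz2 Cre-). Lyz2 Cre is expressed from the lysozyme locus of myeloid cells, and how fully it removed Baf60a is not in the labels. The labels do not state whether replicates are separate animals or cultures. A p-value here therefore reflects the spread of these libraries, which may be technical. The animals' age is not in the labels.

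Open chromatin inside genes is of several kinds. Much of it marks enhancers in introns, short stretches bound by transcription factors that act on promoters at a distance. In macrophages the lineage factor PU.1 (Spi1) together with C/EBP, AP-1, RUNX and IRF factors is known for opening such sites. Other internal sites are alternative promoters, from which shorter or differently spliced transcripts start, and these often hold clusters of the dinucleotide CpG. SWI/SNF complexes slide or evict nucleosomes and act at both kinds of site.

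The sequences below are 6 RefSeq windows of 300 bases around annotated transcription starts that lie inside such regions (GRCm38.p6). Each runs 5′ to 3′ on the strand of its gene, with 250 bases before and 50 after the start. They were chosen after the values were seen, to show the range from CpG-rich to CpG-free starts in regions that the results below describe. Capitals mark CG in the first 5 windows and GAGGAAGT, a form of the PU.1 motif, in the window of Nlrp1b. The windows are those of Pcca (chr14:122534078-122534377, plus strand), Aktip (chr8:91133690-91133989, minus strand), Pigv (chr4:133672598-133672897, minus strand), Hsd11b1 (chr1:193242311-193242610, minus strand), Cd36 (chr5:17835847-17836146, minus strand) and Nlrp1b (chr11:71230684-71230983, minus strand).
Pcca: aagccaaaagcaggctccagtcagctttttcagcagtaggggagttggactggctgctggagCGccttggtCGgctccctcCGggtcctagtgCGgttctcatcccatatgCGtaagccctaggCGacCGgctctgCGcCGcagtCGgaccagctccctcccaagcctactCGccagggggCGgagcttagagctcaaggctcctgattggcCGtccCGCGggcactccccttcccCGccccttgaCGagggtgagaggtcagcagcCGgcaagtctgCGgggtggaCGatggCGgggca
Aktip: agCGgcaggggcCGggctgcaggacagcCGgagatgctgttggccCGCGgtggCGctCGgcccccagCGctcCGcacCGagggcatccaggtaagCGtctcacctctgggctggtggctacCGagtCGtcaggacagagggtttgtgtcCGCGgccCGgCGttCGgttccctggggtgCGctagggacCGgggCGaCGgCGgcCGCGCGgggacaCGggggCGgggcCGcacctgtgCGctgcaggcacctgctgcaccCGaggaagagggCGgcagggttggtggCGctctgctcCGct
Pigv: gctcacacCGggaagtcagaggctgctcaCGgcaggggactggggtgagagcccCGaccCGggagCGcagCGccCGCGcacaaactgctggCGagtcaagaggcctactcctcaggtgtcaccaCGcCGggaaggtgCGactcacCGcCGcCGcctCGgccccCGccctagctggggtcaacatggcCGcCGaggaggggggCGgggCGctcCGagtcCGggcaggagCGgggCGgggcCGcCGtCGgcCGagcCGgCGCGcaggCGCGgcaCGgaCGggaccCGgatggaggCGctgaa
Hsd11b1: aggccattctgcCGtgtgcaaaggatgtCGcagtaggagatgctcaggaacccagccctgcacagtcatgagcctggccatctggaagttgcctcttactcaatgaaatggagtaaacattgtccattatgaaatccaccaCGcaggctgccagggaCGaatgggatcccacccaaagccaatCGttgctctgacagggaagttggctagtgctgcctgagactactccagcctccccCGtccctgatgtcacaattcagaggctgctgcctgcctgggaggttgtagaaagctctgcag
Cd36: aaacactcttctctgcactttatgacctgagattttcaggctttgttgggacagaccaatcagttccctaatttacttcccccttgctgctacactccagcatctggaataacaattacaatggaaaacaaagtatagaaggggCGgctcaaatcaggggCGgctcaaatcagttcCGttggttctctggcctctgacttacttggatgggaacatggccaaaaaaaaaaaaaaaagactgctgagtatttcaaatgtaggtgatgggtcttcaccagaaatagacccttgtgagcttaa
Nlrp1b: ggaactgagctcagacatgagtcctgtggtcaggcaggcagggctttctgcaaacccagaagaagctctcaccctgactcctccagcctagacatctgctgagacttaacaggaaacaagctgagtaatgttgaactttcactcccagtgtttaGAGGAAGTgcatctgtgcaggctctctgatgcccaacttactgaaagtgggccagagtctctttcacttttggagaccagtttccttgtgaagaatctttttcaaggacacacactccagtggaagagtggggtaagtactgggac
Pcca, which encodes a subunit of propionyl-CoA carboxylase, has 21 CG in its window, Aktip has 34 and Pigv, a gene of GPI anchor synthesis, has 38. The window of Hsd11b1, whose enzyme regenerates active glucocorticoid, has 6 CG. That of Cd36, the scavenger receptor for oxidised LDL, has 3, and that of the inflammasome sensor Nlrp1b has 0. The Pcca and Aktip windows belong to the strongest regions of the set, Hsd11b1 to a region that was stronger in KO, and Pigv to a region with lower values in KO that did not pass the test.

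Strength was taken as the highest peak score within a region, as set by the authors' peak caller for each library. Scores of different libraries are not on one scale, since the lists differ in length and depth is unknown. First-cohort lists held 82177 to 141441 peaks and ApoE KO lists 24397 to 44524. Strength was therefore given in a pair of measures. One is the percentile of a region's score within its library's own list, a description only. The other is its percent rank, from 0 for the weakest to 100 for the strongest, among the same 17343 regions in each library, so that every library ranks the same number of regions. A percent rank is relative: when one class of regions ranks higher, another must rank lower.

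By their medians, the regions inside genes lay above the middle of each list and below the middle of the always-open set. Their median percentile within a library's own list ran from 85.7 to 91.1 over the 4 first-cohort libraries (median 88.4) and from 55.5 to 77.0 over the 8 ApoE KO libraries (median 69.3). The lowest was that of replicate 2 of WT with oxLDL, where the quartiles were 36.8 and 74.0. Among always-open regions, their median percent rank was 43.1 to 49.8 in first-cohort libraries and 37.8 to 43.5 in ApoE KO libraries. Always-open regions whose centre lay within 1 kb of a gene boundary, 7101 in number, had medians of 53.2 to 60.9 and 57.4 to 62.7, above the inside regions of every library. The 3692 always-open regions outside genes had medians of 39.9 to 52.6 and 37.4 to 43.0, which overlap those inside genes. The fold enrichment over background that the authors' caller gives each ApoE KO peak was likewise highest at boundaries. Its library medians were 3.96 to 6.39 inside genes, 4.74 to 7.24 at boundaries and 3.99 to 6.47 outside genes. These are descriptions, because the strength of peaks also decides whether a region is called in all libraries.

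**Figure D1:**
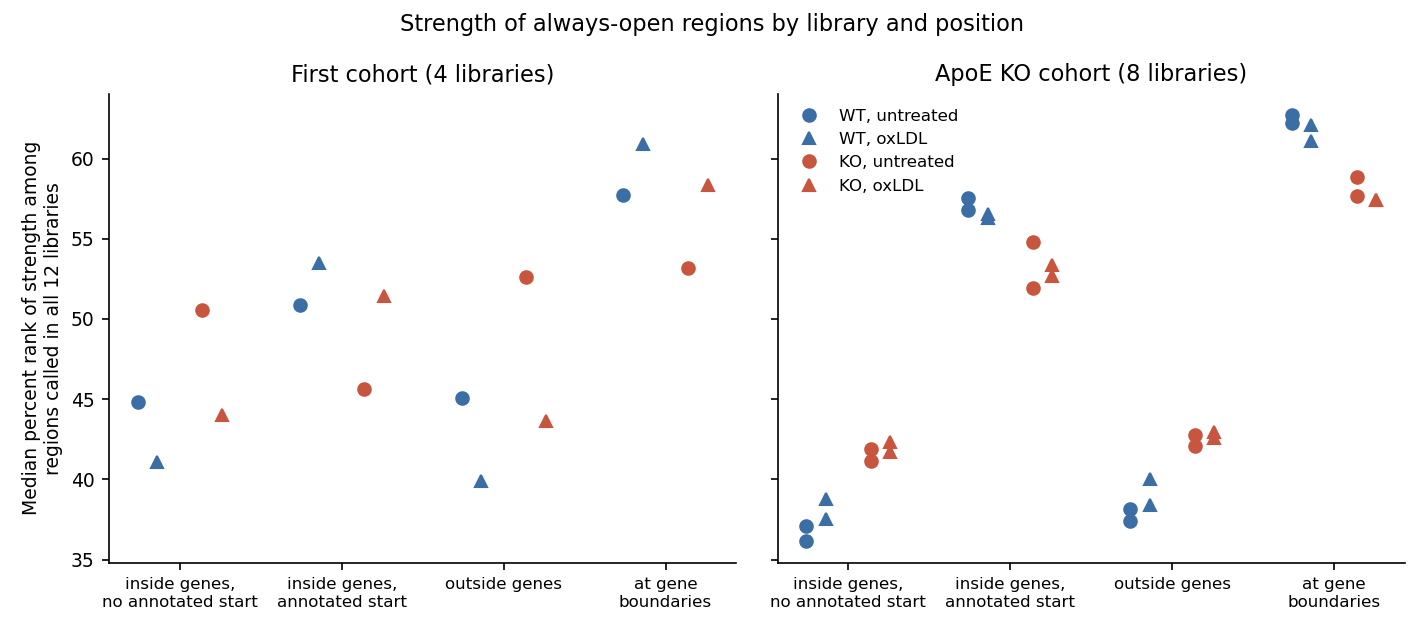
Median percent rank of strength among the 17343 always-open regions (vertical axis, 0 to 100 possible, axis not from 0), 1 point per library, for 4 classes of region (horizontal axis) in the first cohort (left) and the ApoE KO cohort (right), with WT in blue, KO in red, untreated as circles and oxLDL as triangles. Boundary regions rank highest, and the KO points lie above the WT points of the same treatment in regions inside genes with no annotated start and below them in regions with one.

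Regions inside genes had a median length of 1082 bp (quartiles 851 and 1365) and together covered 5.62 Mb. Their centres lay at a median of 11.1 kb from the nearest gene boundary (quartiles 4.47 and 26.0 kb) and at most 336 kb. Peaks within them covered a median of 802 to 1022 bp in first-cohort libraries and 393 to 718 bp in ApoE KO libraries. The summit is the caller's position of highest signal in the ApoE KO lists. Its range over the 8 libraries had a median of 118 bp (quartiles 76 and 212), and 40.6% of the regions kept it within 100 bp. Always-open regions outside genes were alike, with a median of 114 bp and 41.8%.

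At the limits of length and distance the values were close on either side. The 212 regions of 1800 to 1999 bp had a median of the mean percent rank over libraries of 48.9, and the 121 longer ones of 2000 to 2199 bp, which were not kept, had 45.9. The 107 regions 1001 to 1200 bp from a boundary had 47.2, and the 144 at 801 to 1000 bp had 48.3. Regions that met every other criterion but were called in 11 of 12 libraries numbered 1637. Where called, they had a median percentile of 55.0 within their lists, against 73.6 for the regions called in 12. The strength of a peak also decides whether it is called, so the rule itself favours this gap. The percentile is also another measure than the percent rank used for length and distance. The missing call was in replicate 2 of ApoE KO WT with oxLDL, the shortest list, for 743 of them, in replicate 1 of the same group for 332, and in replicate 1 of untreated ApoE KO WT for 290.

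The strongest regions were chosen by their mean percent rank over the 12 libraries. As the scale ends at 100, a high mean allows only a small range. The region with the highest mean percent rank, 99.7, lies inside Pex2, a peroxisome assembly gene (chr3:5575511-5576981), and its rank was 97.8 to 99.97 over the 12 libraries. Next came regions inside Pcca (99.5, chr14:122533727-122535141), Aktip (99.4, chr8:91133030-91134557) and Uggt2, a glucosyltransferase gene of the endoplasmic reticulum (99.2, chr14:119006840-119008087). Those inside Trim45, a ubiquitin ligase gene (99.1), St6galnac5, a sialyltransferase gene (98.4), Clybl (98.3) and Cetn3, a centrin gene (98.2), followed. Lrif1 (97.5) and Wars2, the mitochondrial tryptophanyl-tRNA synthetase gene (97.5), complete the first 10. Of these 10 regions 5 lie on chromosome 3 and 3 on chromosome 14, which hold 287 and 221 of the 5012. Fold enrichment of the Pex2 region in the ApoE KO libraries was 10.9 to 16.0, with a median of 13.5, and that of the Pcca region 11.2 to 17.1. Pcca, Aktip, Trim45, Clybl, Cetn3 and Lrif1, which is 6 of the 10, hold an annotated start. A percent rank over 90 in all 12 libraries was found for 27 regions, 12 of them with an annotated start.

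At the other end, the region inside Srpk2, an SR protein kinase gene (chr5:23674741-23676573), had a mean percent rank of 1.42 and a range of 0.0577 to 3.22, although it holds 2 annotated starts. Regions inside the ubiquitin ligase genes Mgrn1 (2.04) and Trim11 (2.26) were the next lowest. Fold enrichment of the Srpk2 region was 2.36 to 3.17 in ApoE KO libraries. Of all the regions, 8 had a percent rank under 10 in every library. Aktip, Pcca, Pex2, Srpk2 and Uggt2 had the 5 smallest ranges of rank, from 0.767 to 3.62, and all 5 lie at an end of the scale.

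The range of percent rank over 12 libraries had a median of 47.4 (quartiles 35.6 and 60.2), and it was 17.6 within the first cohort and 34.1 within the ApoE KO cohort. Spearman's rank correlation of percent ranks across the 5012 regions was 0.312 to 0.602 for the 32 pairs of libraries of different cohorts. It was 0.744 to 0.853 for the 4 pairs of the same ApoE KO group, 0.700 to 0.818 for the 24 other pairs of that cohort and 0.742 to 0.923 for the 6 first-cohort pairs. These correlations are across regions and describe the libraries only. Protocol, cryopreservation, caller version and stated ApoE background differ together between the cohorts and cannot be told apart.

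The ranks of 607 regions were higher in each ApoE KO library than in each first-cohort library, and those of 803 regions were lower, against 17.5% and 14.7% of all 17343 always-open regions. The widest gaps towards the first cohort were in Axin1, a scaffold gene of Wnt signalling, with a mean percent rank of 94.8 there and 16.2 in the ApoE KO cohort. A region shared by the overlapping genes Rab37 and Cd300lf had 87.6 and 9.56, one in Hibadh, a valine catabolism gene, 97.0 and 20.4, one in Stkld1 94.8 and 18.5, and one in Ckap5, a microtubule gene, 98.0 and 22.3. Towards the ApoE KO cohort the widest were Tmem267 (98.5 there and 3.67 in the first cohort), Duxf3 (92.7 and 1.02), A530032D15Rik (92.8 and 1.40), Sp140 (90.3 and 1.55) and Cln8 (90.02 and 5.12). Duxf3 is a copy in a repeated array, and A530032D15Rik and Sp140 belong to a cluster of closely related genes on chromosome 1, so reads of their copies could be shared and these values are uncertain. How such reads were treated in each cohort is not given in the sources used here.

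These regions were spread over 3192 host genes, 15.5% of 20661 autosomal protein-coding genes. One such region was found in 2158 hosts, 2 in 603 and 3 or more in 431, and the last group held 1692 regions (33.8%). Overlapping genes shared 60 regions. The share of hosts was higher among longer genes. It was 2.79% for genes of 2 to 10 kb, 11.98% of 10 to 30 kb, 25.9% of 30 to 100 kb, 44.4% of 100 to 300 kb and 49.1% of longer ones. Per 100 kb of gene the order was different, at 0.505, 0.721, 0.661, 0.582 and 0.223, with 0.506 over all genes. Host genes had a median length of 61.0 kb, and genes without such a region 13.9 kb.

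Elmo1, whose product works with Dock proteins in engulfment and cell movement, held the most regions, 13 in 518 kb. Sgms1, the sphingomyelin synthase gene, held 12, the phosphodiesterase gene Pde4d 11, and the transcription factor gene Foxp1 and the focal adhesion gene Tns3 10 each. App, the amyloid precursor gene, Arid1b, a SWI/SNF subunit gene, and the homeobox gene Zfhx3 held 9 each, and the GTPase regulator gene Arhgap24 and the repressor gene Bach2 8 each. The 9 regions of App had mean percent ranks of 24.4 to 93.5. The strongest in Elmo1 had 76.0 and its median region 31.5. Of all the regions in these 10 genes, 1 in Sgms1 and 1 in Zfhx3 held an annotated start. Among hosts of 3 or more, the densest were Il17ra, an interleukin receptor subunit gene, with 14.6 per 100 kb, Cyb5r3 with 13.1, Alox5ap, which is needed for leukotriene synthesis, with 12.96, Csk, the kinase that restrains Src, with 11.1, and the lamin gene Lmna with 10.4.

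The share of genes holding such a region was higher than over all genes for each list in this paragraph, not only for macrophage identity and lipid handling genes. It was highest for actin, adhesion and podosome genes (67.65%) and phosphoinositide and phosphatase signalling genes (52.0%). These differences were not tested. These lists are described by counts, since gene length and earlier knowledge of the data both bear on them. Median gene length was 20.7 kb for macrophage identity and 50.9 kb for modified LDL uptake, against 17.5 kb over all genes. Of all genes of 30 to 100 kb, 25.9% were hosts. The lists also overlap and are not separate evidence. Cd36 is in both the identity and the uptake list and gives 7 of the 14 uptake regions. Fli1, with 4, is in both the identity and the transcription factor list. Of 40 macrophage identity genes 17 were hosts, with 2.32 regions per 100 kb, against 15.5% and 0.506 over all genes. Macrophage transcription factor genes had 17 of 36 and 1.81 per 100 kb, cholesterol efflux and LXR genes 10 of 25 and 1.72, and modified LDL uptake genes 5 of 16 and 1.36. Actin, adhesion and podosome genes had 23 of 34 and 1.62, phosphoinositide and phosphatase signalling genes 13 of 25 and 1.63, and NF-kB and Toll-like receptor genes 9 of 29 and 1.77. Lysosome and autophagy genes had 10 of 29 and 1.11, cell cycle genes 5 of 24 and 1.13, and SWI/SNF subunit genes 6 of 26 and 0.950. The median percent rank of the regions in most of these lists lay under that of all 5012 regions, 41.9. It was 35.8 for macrophage identity, 33.2 for macrophage transcription factors, 28.1 for modified LDL uptake and 34.5 for cholesterol efflux, while phosphoinositide signalling had 46.8 and SWI/SNF subunits 54.4.

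**Figure D2:**
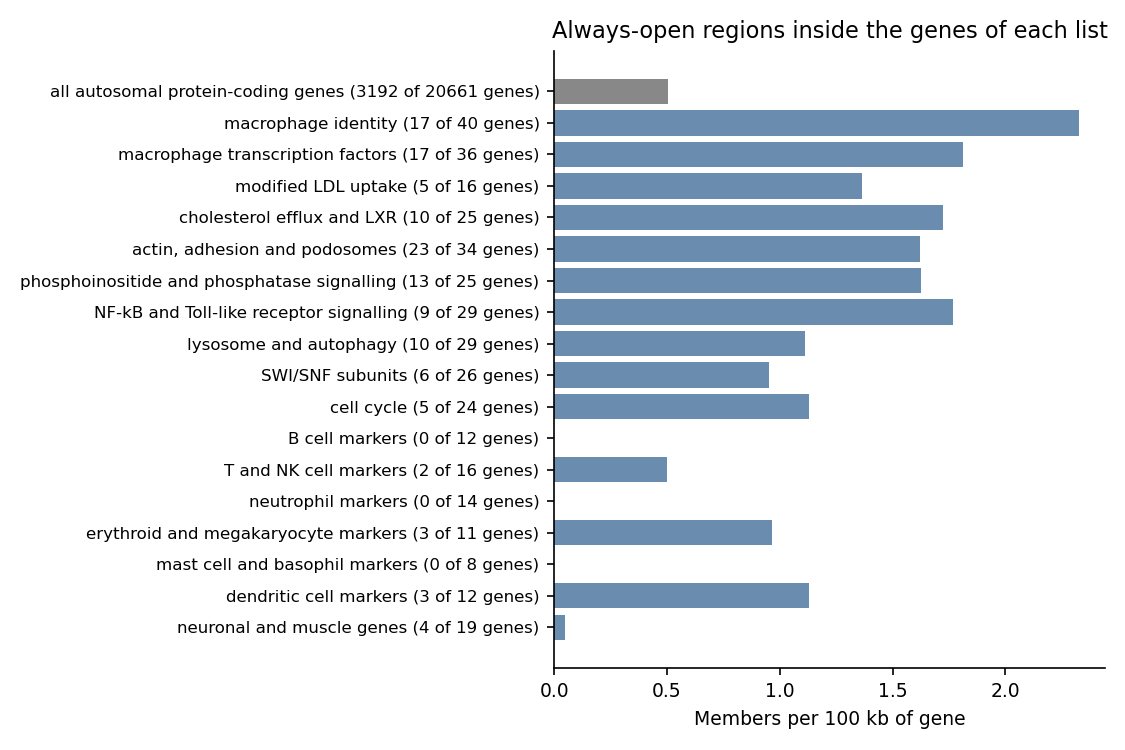
Always-open regions per 100 kb of gene (horizontal axis, bars from 0) for 17 gene lists and for all autosomal protein-coding genes (grey), with the number of genes holding at least 1 such region of the genes matched. Macrophage identity genes have 2.32 per 100 kb, all genes 0.506, and B cell, neutrophil and mast cell and basophil markers none.

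Cd36 shows how these regions were laid out in a macrophage gene. It held 7 in 107 kb, and their mean percent ranks ran from 8.29 (chr5:17786006-17787279) to 49.1 (chr5:17854222-17855095). The region over the internal start whose window is printed above (chr5:17835554-17836369) had a mean percent rank of 28.2, with 5.39 in first-cohort libraries and 39.6 in ApoE KO libraries. Emilin2 and Fli1, an ETS factor gene, held 4 each. Among macrophage factors Mef2c held 5 and Pparg, the lipid-sensing nuclear receptor gene, held 3. In the uptake list Msr1, a scavenger receptor gene, and Lrp1 held 2 each. In the efflux list Nceh1, a cholesteryl ester hydrolase gene, and Soat1, which esterifies cholesterol, held 3 each, and Abca1, the cholesterol exporter gene, held 2. One region in Nceh1 (chr3:27209293-27210637) had a mean percent rank of 76.6, with 39.0 in first-cohort libraries and 95.5 in ApoE KO libraries.

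In the other lists the leading hosts were few. Fyb, an adaptor gene of immune cells, held 8 and the formin gene Fmnl2 held 6, behind Elmo1. The phosphatase genes Ptpre, Ptprj and Ptpn1 held 6, 3 and 3. Nfkb1, Irak2 and Tnip1, of the NF-kB pathway, held 3 each, and the 3 in Nfkb1 were weak, at 6.16 to 9.74. Mitf, Tfeb and the protease gene Ctsb, of the lysosome list, held 2 each. Arid1b, Ss18 and Bicra led the SWI/SNF list with 9, 3 and 2, and the strongest region of Arid1b had 86.6. In the cell cycle list Cdk6 and Ccnd3 held 3 each, and the single region of Ccna2, the cyclin A gene (chr3:36571218-36572760), had a mean percent rank of 96.8.

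Marker genes of other blood lineages differed from list to list, beside 15.45% hosts and 0.506 regions per 100 kb over all genes. The B cell list had 0 hosts of 12 genes, the neutrophil list 0 of 14 and the mast cell and basophil list 0 of 8. Genes of these 3 lists have median lengths of 14.4, 3.36 and 7.12 kb. Of all genes of 2 to 10 kb, 2.79% were hosts, and of those of 10 to 30 kb, where the B cell median falls, 11.98%. The T and NK cell list had 2 of 16 (Gata3 and Klrb1c), the erythroid and megakaryocyte list 3 of 11 (Itga2b, Ank1 and Klf1) and the dendritic cell list 3 of 12 (Tcf4, Flt3 and Zbtb46). That is 12.5%, 27.3% and 25% of their genes, with 0.502, 0.965 and 1.13 regions per 100 kb, so the erythroid and dendritic cell lists lay above the values over all genes, a difference that was not tested. Of the defining markers of macrophages, 4 of 10 were hosts: Spi1, Csf1r, Mertk and Mrc1, with 1, 2, 1 and 2 regions. Adgre1, Fcgr1 and Itgam held regions called in fewer than 12 libraries, and the short genes Cd68, Cd14 and Lyz2 held none over 1 kb from a boundary. Hosts were 0 of 6 defining B cell markers, 0 of 6 T and NK cell markers, 0 of 6 neutrophil markers, 0 of 4 mast cell markers, 1 of 3 erythroid markers and 2 of 5 dendritic cell markers (Flt3 and Zbtb46). A gene under 2 kb cannot be a host by the rule. That covers the neutrophil markers Elane, S100a8 and Cebpe (1.905, 0.964 and 1.812 kb) as well as Cd68 and Cd14. The neutrophil markers span 41.9 kb in all and the macrophage markers 466 kb, so these counts are not on an equal footing. The B cell markers Pax5 and Ebf1 span 186 and 390 kb and held 0. Neuronal and muscle genes, a list that served as a contrast, had 4 hosts of 19 but 0.0473 regions per 100 kb. Their genes have a median length of 513 kb, and all genes over 300 kb had 0.223 per 100 kb. Cntnap2, a neuronal adhesion gene, held 3 and Dlg2 2. Smarcd1, the targeted gene, held 0, so these regions do not check the genotype. Lyz2, Apoe and Nrf1 also held 0, although Apoe and Nrf1 had 2 and 13 internal regions called in fewer libraries.

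A minority of these regions lay over an annotated transcription start, a larger share than among less widely called regions. RefSeq's table of promoter windows lists 31396 autosomal starts, of which 3627 lie inside a protein-coding gene and over 1 kb from any boundary. The table is not complete, so these are lower counts, and this comparison was added after the table was seen. An internal start was found in 615 of the 5012 regions (12.3%, Wilson 95% interval 11.4 to 13.2) and 87 regions held 2 or more. Among regions inside genes called in 1 to 11 libraries, 644 of 64152 (1.00%) held one. The share was 0.330% in regions called in 1 library, 0.915% in 4, and 4.34% (3.45 to 5.44) in 11. Longer regions have more room for a start and regions called in more libraries are longer. At 850 to 1350 bp the share was 8.73% (7.68 to 9.91) of 2464 always-open regions, 5.13% (3.74 to 6.98) of 722 called in 11 libraries and 4.09% of all 4788 called in 1 to 11. These intervals treat regions as independent and cover counting error only.

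**Figure D3:**
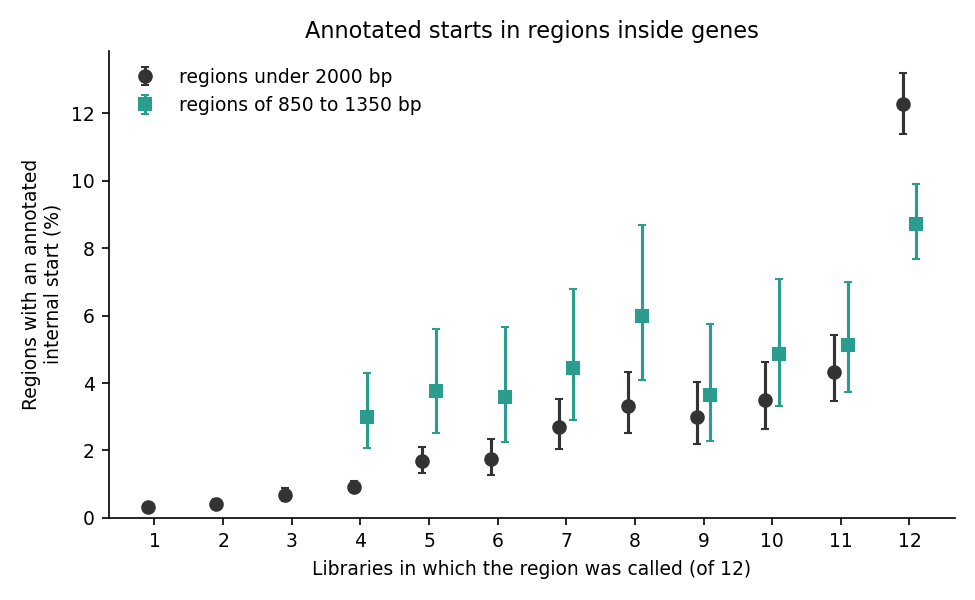
Percent of regions inside genes that hold an annotated internal start (vertical axis) by the number of libraries in which the region was called (horizontal axis), with Wilson 95% intervals, for all regions under 2000 bp (black circles) and for those of 850 to 1350 bp (green squares, shown for 4 libraries or more). The share at 12 libraries is 12.3% for all regions and 8.73% at the narrower length, above 4.34% and 5.13% at 11.

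Seen from the starts, 720 of the 3627 (19.9%) lay in an always-open region under 2000 bp, 187 (5.16%) in a longer one, 34 (0.937%) in a shorter one centred outside the gene or near a boundary, 745 (20.5%) in a region called in 1 to 11 libraries and 1941 (53.5%) in no peak. Nearly all of the 720, namely 710, are starts of the host gene itself, and they belong to 612 genes. In the 528 regions with a single start, the median summit of the ApoE KO libraries lay close to it. The median offset was -22.0 bp, upstream of the start, with quartiles of -87.6 and 37.3 bp, and 342 summits (64.8%) were within 100 bp.

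**Figure D4:**
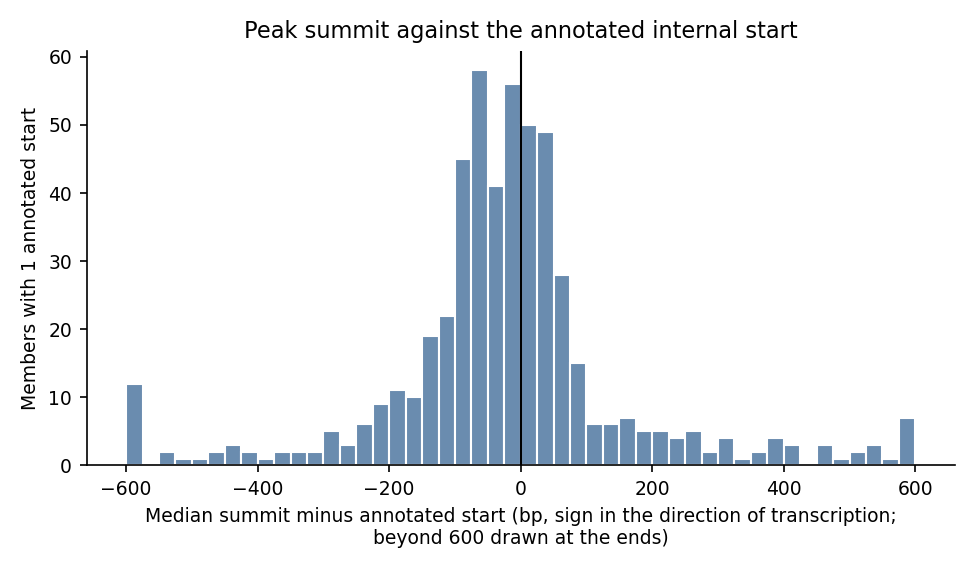
Position of the median peak summit over the 8 ApoE KO libraries relative to the annotated start (horizontal axis, bp, negative is upstream) for the 528 always-open regions inside genes that hold 1 start, with the number of regions on the vertical axis. Most summits (342) lie within 100 bp of the start. At any distance, 315 of the 528 lie upstream and 208 downstream.

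The starts in these regions were rich in CpG. Their 720 windows had a median of 20 CG per 300 bases and 81.5% had 10 or more, against 4 and 15.4% for the 1941 internal starts in no peak and 7 and 43.9% over all 31365 windows. Starts in always-open boundary regions had 23 and 89.1%. Regions whose start window had 10 or more CG ranked higher, with a median of the mean percent rank of 53.9 over 587 starts, than those with 5 to 9 (44.4 over 94) or under 5 (42.3 over 39). The Pcca and Aktip windows printed above, with 21 and 34 CG, are of the first kind and the Cd36 window of the last.

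Motif matches were counted on both strands of these windows. GAGGAAGT was in 4.17% of the windows of always-open internal starts, 1.86% of those in no peak and 3.25% of all windows. GAGGAA, its core, which every match of the longer form contains, was in 27.4%, 29.3% and 28.2%. The AP-1 motif TGANTCA was in 5.28%, 8.35% and 7.85%, and the C/EBP motif TTNNGCAA in 11.8%, 12% and 10.9%. The RUNX motif TGTGGT was in 12.4%, 19.0% and 16.7%, and the IRF motif in 2.08%, 3.40% and 3.45%. The palindromic motif of NRF1 was in 14 windows of always-open internal starts (1.94%), 2 of those in no peak (0.103%) and 0.963% of all. Starts in always-open boundary regions had the NRF1 motif in 2.65% of windows and GAGGAAGT in 3.26%. Internal starts in regions called in 1 to 11 libraries had 0.134% and 4.3%. Neither motif is therefore particular to the always-open internal starts. Within always-open starts, GAGGAAGT was in 10.3% of the 39 windows with under 5 CG, as in Nlrp1b. It was in 4.255% of the 94 with 5 to 9 and in 3.748% of the 587 with 10 or more. The corresponding shares of TGANTCA were 15.4%, 7.45% and 4.26%. The lowest class is small, so its shares rest on few windows. The windows also differ in base composition, and its part in these shares was not tested. A match is a description of letters and not a site, and the regions without a start, which have no window here, were not searched.

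Regions with and without an annotated start are described here by place and strength, with no test. Where the strand of a host was known, and with a region counted once for each overlapping host, the 619 positions with a start lay at a median of 20.3% of the gene, 5.80 kb from its beginning. The 3443 without one lay at 46.0% and 35.4 kb, close to the 48.8% and 35.1 kb of the 51403 regions called in 1 to 11 libraries. Regions with a start were longer (median 1419 bp against 1041 bp). Their median percent rank over libraries was 45.6 to 53.5 in first-cohort libraries and 51.9 to 57.6 in ApoE KO libraries. For regions without one it was 41.1 to 50.6 and 36.1 to 42.3. In the ApoE KO cohort the 2 sets of library medians did not overlap. In the first cohort they did, and in the untreated KO library the order was the opposite, with 45.6 for regions with a start and 50.6 for those without one.

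Few single regions differed between KO and WT past the test. Percent ranks of all 17343 always-open regions were fitted with limma, with genotype-by-treatment groups and cohort as terms, and p-values were adjusted by the Benjamini-Hochberg method over all of them. For KO against WT, averaged over both treatments, 7 of 17343 regions passed an adjusted p of 0.05 (0.0404%). Of these, 4 lay inside genes, 4 of 5012, and all 4 ranked higher in KO. In bulk libraries, more cells with a region open and a more open region per cell cannot be told apart.

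The region inside Serinc5, a gene for a membrane protein that moves lipids (chr13:92650734-92651443), had percent ranks of 59.6 and 63.5 in the WT libraries of the first cohort, untreated and with oxLDL, and 87.7 and 89.6 in KO. In the ApoE KO cohort it had 24.3 and 25.6 in untreated WT, 21.3 and 42.1 in WT with oxLDL, 53.9 and 57.7 in untreated KO, and 87.8 and 84.6 in KO with oxLDL. Each KO library ranked above each WT library of its cohort, whatever the treatment. The difference was 37.5 points of percent rank (SE 6.45, limma adjusted p = 0.0385), higher in KO at each of the 2 treatments in both cohorts.

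The region inside Slc2a13, a myo-inositol transporter gene (chr15:91282696-91283300), had 25.5 and 53.01 in first-cohort WT and 75.7 and 81.4 in KO. Its ApoE KO ranks were 18.3 and 11.5 in untreated WT, 40.0 and 32.5 in WT with oxLDL, 39.1 and 48.4 in untreated KO and 81.9 and 80.1 in KO with oxLDL. Untreated KO and oxLDL WT libraries overlapped there, and within each treatment KO lay above WT. The difference was 37.6 points (SE 6.65, limma adjusted p = 0.0440).

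The region inside Epha7, an ephrin receptor gene (chr4:28943478-28944851), had 40.9 and 55.8 in first-cohort WT and 80.0 and 72.4 in KO. In the ApoE KO cohort it had 73.6 and 65.5 in untreated WT, 82.9 and 81.8 in WT with oxLDL, 89.4 and 89.97 in untreated KO and 97.4 and 95.3 in KO with oxLDL. All KO libraries lay above all WT libraries of their cohort, and the difference was 20.7 points (SE 3.71, limma adjusted p = 0.0440).

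The region over the internal start of Hsd11b1 (chr1:193241954-193243314), whose window is printed above, had 58.6 and 93.6 in first-cohort WT and 93.7 and 91.5 in KO. Its ApoE KO ranks were 51.3 and 61.7 in untreated WT, 77.5 and 65.0 in WT with oxLDL, 77.6 and 85.6 in untreated KO and 95.4 and 98.1 in KO with oxLDL. In first-cohort cells with oxLDL the KO library was therefore not above the WT library, unlike in the other 3 comparisons. The difference was 22.4 points (SE 4.06, limma adjusted p = 0.0440). Fold enrichment of this region in the ApoE KO libraries was 4.69 to 6.91 in WT and 7.20 to 10.9 in KO.

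**Figure D5:**
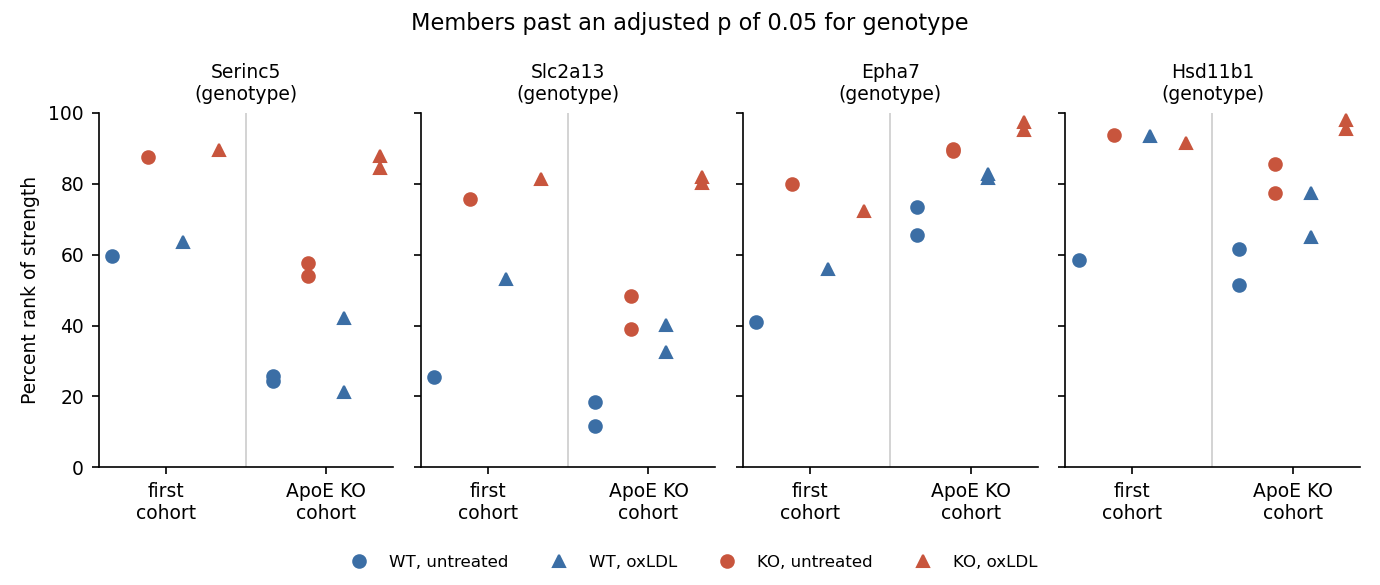
Percent rank of strength (vertical axis, 0 to 100) of the 4 always-open regions inside genes that passed an adjusted p of 0.05 for genotype, 1 point per library, with the first cohort left and the ApoE KO cohort right of the line in each panel, WT in blue, KO in red, untreated as circles and oxLDL as triangles. In Serinc5 and Epha7 each red point lies above each blue point of its cohort.

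No region inside genes passed in the other direction. The 3 with the smallest p were those of Pigv (-24.3 points, SE 5.80, adjusted p = 0.0870), Niban2 (-27.2, SE 6.97, adjusted p = 0.109) and Med29, a Mediator subunit gene (-22.5, SE 5.89, adjusted p = 0.112), all by limma. The Niban2 region had ApoE KO ranks of 64.9 and 83.0 in untreated WT and 35.4 and 10.3 in untreated KO. With oxLDL its ranks there overlapped, at 52.65 and 52.5 in WT and 46.9 and 56.3 in KO. In the first cohort it had 64.2 and 66.6 in WT, untreated and with oxLDL, and 26.9 and 45.1 in KO. The Pigv region lies over the CpG-rich internal start printed above. Its ApoE KO ranks were 37.4 to 54.6 in WT and 2.32 to 19.2 in KO, which do not overlap, and in the first cohort it had 11.95 and 20.4 in WT and 6.78 and 12.7 in KO. The genotype calls depend on single libraries: 0 regions inside genes passed in 8 of the 12 fits that left out 1 library, namely untreated KO of the first cohort or any ApoE KO library but replicate 2 of WT with oxLDL. Without the first-cohort KO library with oxLDL 60 passed, without WT untreated of that cohort 12, without WT oxLDL of it 9, and without replicate 2 of ApoE KO WT oxLDL 1.

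Below the threshold the shift was wider and had opposite signs for the 2 kinds of region. At an unadjusted p of 0.05, 15.2% of all always-open regions differed between genotypes, and 747 of 5012 inside genes did (14.9%), 588 higher and 159 lower in KO. Over all always-open regions 7.94% were higher and 7.21% lower. The median difference was 2.11 points, with 60.1% of the regions above 0, against -0.534 and 47.0% over all always-open regions. Among the 4397 regions without an annotated start it was 2.80 points, with 569 higher and 106 lower at that p. Among the 615 with a start it was -2.19 points, with 19 higher and 53 lower. Boundary regions had -2.42 points (227 higher, 797 lower) and regions outside genes 3.07 (547 higher, 81 lower). Because ranks are relative, these medians are not separate findings, and a smaller gene-boundary share in KO lists was already known from these files. Peak lists were also longer in KO in the first cohort (141441 against 108934 untreated, 95901 against 82177 with oxLDL) and, in oxLDL-treated cells, in the ApoE KO cohort (33934 and 35589 against 24397 and 27571). The part of list length in these shifts was not tested.

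The library medians show the same split within each cohort and treatment. In regions without a start, the median percent rank of KO libraries was above that of WT libraries by 5.75 points untreated and 2.89 with oxLDL in the first cohort, and by 4.91 and 3.91 in the ApoE KO cohort. For regions with a start it was -5.23, -2.11, -3.79 and -3.40 points in the same order. The pooled SD between replicates of a group was 0.646 points for regions without a start and 1.10 for those with one. In the ApoE KO cohort each KO library lay on the same side of each WT library of its treatment in both kinds of region. However, both untreated WT libraries of that cohort carry an L001 mark in their file names, and the untreated KO libraries do not. Genotype and this mark therefore cannot be told apart in its untreated cells.

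CpG content divided the regions with a start in the same way. The limit of 10 CG was set after values were seen. The 505 with a window of 10 or more CG had a median difference of -2.87 points (9 higher and 49 lower in KO at an unadjusted p of 0.05). The 110 with fewer had 1.09 points (10 higher, 4 lower), closer to the regions without a start. The Hsd11b1 region, with 6 CG, is in the second set and the Pigv region, with 38, in the first.

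No gene list held a region that passed for genotype. Macrophage identity genes had 19 of 37 regions above 0, macrophage transcription factor genes 19 of 35, modified LDL uptake genes 8 of 14, and actin, adhesion and podosome genes 44 of 79, against 3014 of 5012 overall. Cholesterol efflux and LXR genes had 7 of 16, phosphoinositide signalling genes 13 of 32, NF-kB and Toll-like receptor genes 10 of 16, lysosome genes 7 of 13, SWI/SNF subunit genes 5 of 17 and cell cycle genes 3 of 9. Neuronal and muscle genes had 7 of 7 above 0, with a median of 9.42 points. The 3 regions of Cntnap2 had differences of 7.23 (SE 2.27), 26.5 (SE 8.10) and 8.86 points (SE 7.75), with limma adjusted p of 0.143 at the lowest. In Fmnl2, 1 of 6 regions (chr2:52924340-52925674) had a difference of 31.4 points (SE 7.53, limma adjusted p = 0.0880). Both were singled out after their values were seen.

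Treatment with oxLDL moved 1 region past the threshold. Of 17343 always-open regions 1 passed (0.00577%) in limma, with a higher rank under oxLDL. Leaving out 1 library gave 0 to 2 calls inside genes.

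Regions with lower ranks under oxLDL did not pass. The 3 with the smallest p were those of Nbea (-41.7 points, SE 8.57), Col23a1, a collagen gene (-39.3, SE 7.82), and Mgat5, which branches N-glycans (-19.7, SE 3.98), each with a limma adjusted p of 0.141. At an unadjusted p of 0.05, 9.37% of all always-open regions differed, 4.8% higher and 4.57% lower. Inside genes 251 were higher and 285 lower with oxLDL, with a median difference of -0.120 points. The shift of the library medians of regions inside genes differed in sign between the cohorts. It was -2.87 points in WT and -4.87 in KO in the first cohort, and 1.25 and 0.74 in the ApoE KO cohort, and this difference between cohorts was not tested. In WT of the ApoE KO cohort, the untreated libraries carry the L001 mark of file names and the oxLDL libraries do not. Treatment and mark cannot be told apart there.

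In the cholesterol pathway, values with oxLDL were mixed and none passed. Of the 2 regions of Abca1, the one at chr4:53148854-53150271 had a difference of 21.5 points (SE 6.72, limma adjusted p = 0.364) and the other 12.6 (SE 6.54). The 2 regions of Msr1 had -17.7 (SE 6.42, adjusted p = 0.416) and -21.9 points (SE 7.39, adjusted p = 0.395, limma). The 7 regions of Cd36 had differences of -3.40 to 4.76 points, within their SE of 3.96 to 7.19. Cholesterol efflux and LXR genes had 11 of 16 regions above 0, modified LDL uptake genes 7 of 14, NF-kB and Toll-like receptor genes 6 of 16 and macrophage identity genes 22 of 37, against 2483 of 5012 overall.

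Whether oxLDL acted differently in KO and WT was tested by the interaction of genotype and treatment. No region passed in limma (0% of 17343, lowest adjusted p = 0.991), and 4.26% of all always-open regions and 232 of 5012 inside genes (99 higher, 133 lower) had an unadjusted p under 0.05. Over all always-open regions 2.17% were higher and 2.09% lower. The regions inside genes with the smallest p were those of Usp10, a deubiquitinase gene (49.8 points, SE 13.4), Gid4 (36.6, SE 10.9) and Rhbdf2, which is needed to release TNF (52.6, SE 15.6), with a more positive change under oxLDL in KO. In the other direction they included those of Ranbp17 (-23.2, SE 5.55) and Nkx2-2, a homeobox gene (-47.2, SE 12.9). Genotype, treatment and interaction were estimated from the same 12 libraries, so their values for one region are not independent.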

How the data were processed

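The data are 12 deposited peak lists of BMDM ATAC-seq, 1 per library, so peaks were not called on pooled samples. Bowtie2 2.3.4.1, SAMtools 1.2, bedtools 2.28.0, Picard, Trim Galore, cutadapt, FastQC and MACS3 (first cohort) or MACS2 (ApoE KO cohort) on mm10 are named in the submitters' processing notes, with reads of length 150 per the labels' protocols. Whether reads were shifted for the transposase, or duplicates and repeats removed, is not given in the sources used here and would change which regions were called. For each peak the authors deposited a caller score, in whole numbers from 13 upwards. The ApoE KO lists also hold a fold enrichment, a -log10 p and a -log10 q per peak and a summit position, deposited by the authors. The score equals the -log10 q times 10, rounded down, with up to 11 exceptions per library. No list gives read counts, so depth is unknown and limits weak peaks most.

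Peaks were merged, assigned to RefSeq genes of GRCm38.p6 (every gene type counted as a boundary) and ranked as the report describes. The RefSeq table used gives no exons, so exon and intron were not told apart. Strand came from the RefSeq promoter table where it lists the gene. No genome was used here, so the planned motif search around summits, CTCF included, became one in RefSeq start windows. Percent ranks were fitted with limma 3.58.1 (eBayes with trend, R 4.3.3), tested on simulated data first, and the alternatives include other scales, single cohorts, left-out libraries, a replicate block and the L001 or L003 mark of file names. L001 marks 3 libraries, both of untreated WT and replicate 1 of KO with oxLDL in the ApoE KO cohort. Other steps ran in Python 3.11.15 (pandas 2.3.3, numpy 2.4.6, matplotlib 3.10.9, scipy 1.17.1). Regions and genes were named by rule: the 10 strongest and 3 weakest regions, the 10 hosts with most regions and 5 densest, up to 3 hosts per list, the called regions or the 3 with smallest p per direction of each contrast, the 5 largest cohort differences each way, the 5 largest and 5 smallest ranges, and Smarcd1, Lyz2, Apoe and Nrf1. Some regions that this rule names are not reported here. The regions, gene lists and rules were chosen with earlier results of these data known.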

Additional observations from a re-analysis of the deposited data

Results flagged for a closer look

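The X chromosome was outside the comparisons, since the ApoE KO lists hold autosomes only. In the first cohort, 3360 merged X regions were found and 1549 of them were called in 4 of 4 libraries. Of these, 619 met the same limits of length and distance inside genes. They are listed because they are a signal in data that no comparison used, and there is no second cohort to set beside them.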

How the results depend on the processing

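The number of regions inside genes was 4117 to 5295 over 6 other ways of merging, filtering and placing peaks, and 5019 to 5755 when 1 library was left out, with 3195 to 3457 host genes. The share with an annotated start was 10.2% at over 2 kb from a boundary and 13.7% with no limit on length, and 11.1% to 12.7% without 1 library. Genotype calls inside genes, 4 in the report, were 69 with normal scores of the ranks, 53 with quantile-normalised log2 scores, 1 without a variance trend and 0 with fold enrichment, with the ApoE KO cohort alone or without the 3 L001 libraries. Without 1 library they were 0 to 60. Treatment calls, 1 in the report, were 4 with normal scores, 4 with log2 scores and 0 with the sum of scores, fold enrichment, no trend, the ApoE KO cohort alone, the L001 or L003 term or the 3 L001 libraries left out, and 0 to 2 without 1 library. Interaction calls were 0 throughout, without 1 library too. The replicate numbers of the ApoE KO cohort did not pair the libraries (correlations of deviations -0.102 to 0.0584 over 6 pairs of groups). With the replicate block, genotype calls were 0 in the ApoE KO cohort alone and 0 over all libraries, and treatment calls 0 and 1. At an unadjusted p of 0.05, leaving out the 3 L001 libraries gave 162 regions higher and 30 lower for genotype and 100 higher for treatment. Interaction counts at that p, higher and lower, were 185 and 204 with fold enrichment, 213 and 214 in the ApoE KO cohort alone, 203 and 209 there with the replicate block, 14 and 17 with the L001 or L003 term and 21 and 18 without the L001 libraries. Without 1 library these counts were 440 to 696 higher and 106 to 198 lower for genotype, 187 to 287 and 216 to 337 for treatment, and 63 to 180 and 91 to 256 for interaction. The median genotype difference kept its sign in all settings, -2.77 to -1.35 with a start and 2.23 to 3.26 without one when 1 library was left out, and was 1.55 for regions without a start when the L001 libraries were. The cause of these changes was not tested. Of 23 settings, the named genotype calls passed in 9 (Serinc5), 9 (Slc2a13), 8 (Epha7) and 6 (Hsd11b1), and none reversed.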
